A study of Homo sapiens with 6 samples.

Results

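Semaphorins are guidance proteins that are secreted or carried on the cell surface, and plexins are the receptors through which they act. The family described here consists of 31 genes measured in 786-O cells with lower ERCC6L: 20 semaphorins, 9 plexins and the 2 neuropilins, taken as all probe sets whose only gene symbol is one of these names. They were 31 of the 18132 genes tested and 101 of 44994 probe sets with 1 gene symbol. The family was chosen by a value of this same comparison, the rise of SEMA7A between shERCC6L and shNC on the log2 scale, so the changes of its members are given as a description: each is stated with its size and error and with the call of a test run over all genes, without a p-value of its own.

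786-O is a widely used human cell line that came from a kidney cancer of the clear cell type. The tested cells, called shERCC6L here, carried a lentiviral short hairpin RNA (shRNA) against ERCC6L, a DNA translocase of anaphase, and the control cells, shNC, carried a negative control shRNA. Each group had 3 single-channel Affymetrix arrays of biotin-labelled RNA, and all cells were grown in RPMI medium with serum per the labels. The number of hairpins, the time after infection and whether replicates were separate cultures are not stated in the labels. Any p-value given here therefore reflects only how far these arrays differ among themselves, which may be technical. The labels' treatment text names the ERCC6L hairpin for all 6 samples, and the groups were taken from the sample titles and sources.

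Secreted class 3 semaphorins mostly bind neuropilins, which then signal through class A plexins or PLXND1, whereas transmembrane semaphorins bind plexins directly. An activated plexin works through small GTPases and through kinases and MICAL oxidases that take apart actin, so that the edge of the cell withdraws or turns. SEMA7A differs from the rest in that a lipid anchor holds it in the membrane, and it binds both PLXNC1 and integrins that contain ITGB1. Beyond the nervous system the family guides blood vessels and immune cells, and in epithelial tumours its members have been linked to migration in both directions.

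Signals are linear intensities, and changes are differences of log2(signal + 16) between shERCC6L and shNC, so a positive value means higher in shERCC6L. The constant of 16 shrinks the changes of dim genes. Array medians were 60.04 to 61.21 in shERCC6L and 60.37 to 61.56 in shNC, and correlations within groups were at least 0.9987, against at most 0.9942 between groups. The target ERCC6L had signals of 97.6, 97.5 and 97.8 in shERCC6L, against 239.9, 244.3 and 261.4 in shNC, a change of -1.22 ± 0.04 (SE, n = 3 per group; limma adjusted p = 1.62e-07). Of 9 renal markers 8 were measured, all at or above the median level of all genes, and PAX8, a transcription factor that defines renal epithelium, had signals of 484.5 to 523.3 in shERCC6L and 386.6 to 398 in shNC. Of these 8, 2 were called higher, PAX8 at 0.34 and the keratin gene KRT18 at 0.13. Called lower were 3, NNMT at -0.66, CDH6 at -0.50 and EPAS1 at -0.36. Calls were common among genes this bright, with 32.8% called higher and 19.6% lower. Over the 18132 genes of every level the shares were 18.2% and 13.4%. Whether the renal markers differ from these shares was not tested. The 5 fibroblast markers lay below the median level, with summed signals of 138.5 to 142.7 in shERCC6L and 158.9 to 168.7 in shNC, and COL1A1 was the 1 that was called, as lower. Of the 5 endothelial markers 1 was called, as lower, and of 4 leukocyte and 5 neuronal markers 0 were. The endothelial and leukocyte markers lay below the median level. So did the neuronal markers except SNAP25, with mean signals of 264.2 in shERCC6L and 256.2 in shNC. No marker was at 0 on any array, as the lowest signals on these arrays are above 0. Summed signals of the endothelial markers were 244.4 to 250.3 in shERCC6L and 257.4 to 268.2 in shNC. The part of these markers in the results below was not tested.

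Of the 11735 genes with 2 or more probe sets, 13.5% had all of them called in 1 direction. Of the 28 such members 4 did: SEMA7A and SEMA4B were higher, and SEMA5A and SEMA5B were lower. Their promoter windows, from 250 bases before to 50 after the outermost start of the gene, are shown because the call of these members did not depend on which probe set was read. The windows come from RefSeq (GRCh38.p14), lie at chr15:74433909-74434208 on the minus strand, chr15:90184670-90184969 on the plus strand, chr5:9546026-9546325 on the minus strand and chr3:123028556-123028855 on the minus strand, and are written 5′ to 3′ with matches to GGGCGG, the GC box, in capitals on either strand. RefSeq lists 2 windows for SEMA7A, 3 for SEMA4B, 1 for SEMA5A and 3 for SEMA5B. Only the outermost window of each gene is printed, and the counts given for these 4 genes are of that window. The arrays do not show which start is used.
SEMA7A promoter: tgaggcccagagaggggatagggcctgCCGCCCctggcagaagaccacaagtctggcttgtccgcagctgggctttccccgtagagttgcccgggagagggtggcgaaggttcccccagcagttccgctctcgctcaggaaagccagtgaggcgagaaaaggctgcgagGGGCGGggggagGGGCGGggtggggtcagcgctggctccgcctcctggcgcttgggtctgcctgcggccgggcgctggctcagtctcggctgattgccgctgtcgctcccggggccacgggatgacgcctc
SEMA4B promoter: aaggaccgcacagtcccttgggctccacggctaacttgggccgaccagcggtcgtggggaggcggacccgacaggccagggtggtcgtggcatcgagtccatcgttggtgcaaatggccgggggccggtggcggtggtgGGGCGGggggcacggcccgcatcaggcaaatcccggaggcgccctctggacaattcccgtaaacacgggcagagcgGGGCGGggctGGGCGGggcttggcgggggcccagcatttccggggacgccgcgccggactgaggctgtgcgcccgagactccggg
SEMA5A promoter: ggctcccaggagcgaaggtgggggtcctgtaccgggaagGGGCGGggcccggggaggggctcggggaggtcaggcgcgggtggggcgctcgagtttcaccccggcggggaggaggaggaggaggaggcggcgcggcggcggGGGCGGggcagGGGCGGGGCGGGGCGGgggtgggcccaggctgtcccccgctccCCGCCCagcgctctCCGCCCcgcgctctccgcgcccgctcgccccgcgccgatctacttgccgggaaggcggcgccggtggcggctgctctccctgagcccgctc
SEMA5B promoter: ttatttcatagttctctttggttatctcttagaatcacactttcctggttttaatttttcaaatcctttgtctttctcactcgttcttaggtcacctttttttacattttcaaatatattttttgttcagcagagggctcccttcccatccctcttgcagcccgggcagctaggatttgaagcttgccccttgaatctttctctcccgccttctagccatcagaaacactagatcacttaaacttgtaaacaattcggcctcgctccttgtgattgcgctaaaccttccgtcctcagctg

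The windows were searched on both strands, with overlapping matches counted, for the GC box, for TGANTCA (the AP-1 motif), CCGGAAG (ETS factors), GGAATG (TEAD factors) and ACGTG (the core of the hypoxia response element). The GC box occurred 3 times in the SEMA7A window, 3 times in the SEMA4B window, 7 times in the SEMA5A window and 0 times in the SEMA5B window. Of the other motifs, 0 matches were found in these 4 windows. Of the 35116 windows listed for all genes, 45% held a GC box, and 7.71%, 10.3%, 14% and 21.4% held AP-1, ETS, TEAD and hypoxia motifs. RefSeq windows were matched for 27 of the 31 members, 48 windows in all, of which 64.6% held a GC box, 2.08% an AP-1 motif, 6.25% an ETS motif, 14.6% a TEAD motif and 20.8% a hypoxia motif. GC content was 70% for SEMA7A, 72.3% for SEMA4B, 81% for SEMA5A and 42% for SEMA5B.

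Over the whole family, 5 genes were called higher in shERCC6L (SEMA3C, SEMA4B, SEMA4D, SEMA7A and PLXNA1) and 9 lower (SEMA3B, SEMA4F, SEMA5A, SEMA5B, SEMA6D, PLXNB2, PLXND1, NRP1 and NRP2). Among all genes tested, 18.2% were called higher, 13.4% lower and 31.6% in either direction, at a limma adjusted p under 0.05. The remaining 17 members were not called, and 8 of these had a mean level below the median of all genes. On the brightest probe set of each gene, SEMA7A was the 1 member with a change of at least 1.5-fold, which 2.08% of all genes reached. Over all 101 member probe sets, 5 reached it, the 4 of SEMA7A and 1 of SEMA5B, where 2.12% of all probe sets did. The median change of the 31 members was -0.061, against -0.011 over all genes. Among the 21 members at or above the median level, 5 were called higher and 7 lower. Of all genes at that level, 32.8% were called higher, 19.6% lower and 52.4% in either direction. Because SEMA7A chose the family, nothing is read from these shares. The same shares of all genes stand against the counts of each class of members below, and nothing is read from those counts either. Signals did not overlap between the groups for 15 members, while 43.4% of all genes had groups that did not overlap. As these are bulk cultures, fewer cells with a transcript and less transcript per cell cannot be told apart.

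**Figure D1:**
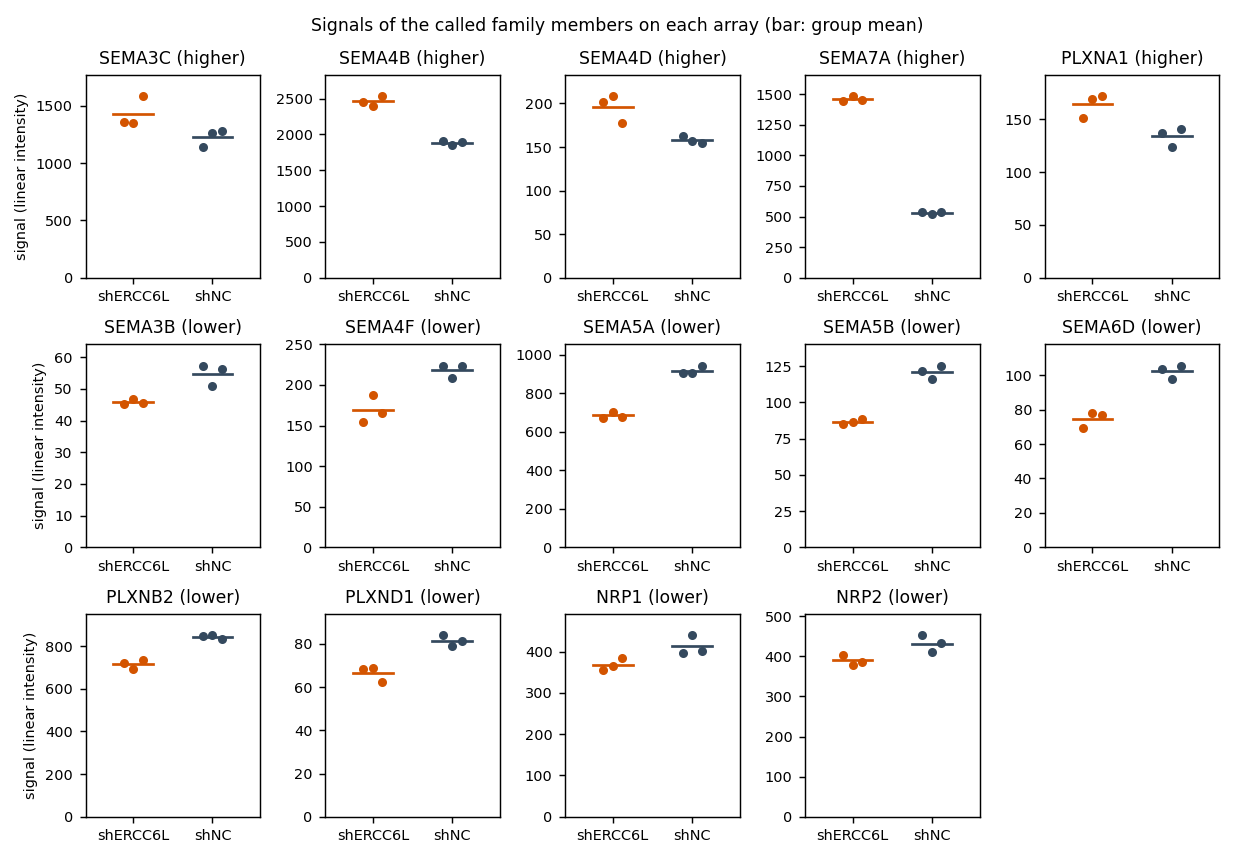
Linear signal (y axis, from 0) of the 14 called members on each of the 3 shERCC6L and 3 shNC arrays, as points with the group mean as a bar. The SEMA7A panel shows the widest gap, 1442 to 1483 in shERCC6L against 518.4 to 537.4 in shNC, and in all 14 panels the groups do not overlap. The panels were picked by their call, which favours such separation, and 43.4% of all genes have groups that do not overlap.

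SEMA7A, the lipid-anchored semaphorin that binds PLXNC1 and ITGB1-containing integrins, was the member with the largest change. Its brightest probe set read 1442, 1483 and 1453 in shERCC6L, against 533.9, 518.4 and 537.4 in shNC. All 3 shERCC6L arrays lay far above all 3 shNC arrays, and the 3 values within each group were close together. The mean was 1459 ± 21.4 in shERCC6L and 529.9 ± 10.1 in shNC (SD, n = 3 per group), a change of 1.43 ± 0.03 (SE; 95% confidence interval 1.36 to 1.51). The gene has 3 further probe sets, all much dimmer. One of them read 84.6, 94.9 and 92.7 in shERCC6L, against 44.6, 48.9 and 45.4 in shNC. A second read 78.3, 86.1 and 85.1 in shERCC6L, against 36.9, 39.9 and 33.4 in shNC. The last read 76.2, 66.6 and 84.3 in shERCC6L, against 39.2, 42.1 and 40.9 in shNC. The groups did not overlap on any of the 4 probe sets. The ratio of group means was 2.75 on the brightest and 1.96, 2.27 and 1.86 on the dimmer ones, while on the log2(signal + 16) scale the changes were 1.43, 0.78, 0.91 and 0.69. When the 4 were averaged the change was 0.95, under 2-fold on that scale, where the constant of 16 compresses the changes of the dimmer probe sets. Across 17 alternative settings it ran from 0.95 to 1.46.

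The receptors through which SEMA7A acts were not called. PLXNC1, the plexin that binds SEMA7A, was dim, with signals of 14.3, 19.9 and 18.9 in shERCC6L, against 19.5, 19.4 and 17.8 in shNC. The groups overlapped, and the change was -0.05 ± 0.06 (SE, 95% confidence interval -0.19 to 0.08). ITGB1, the integrin beta chain of the other SEMA7A receptor, read 8805, 8600 and 8943 in shERCC6L, against 8893, 9088 and 9124 in shNC. Its change of -0.04 ± 0.03 (SE, 95% confidence interval -0.12 to 0.04) was not called, nor was that of any of its 5 probe sets. ITGA1, the alpha chain that pairs with ITGB1 in this receptor, was dim and not called, with a mean of 23.7 ± 3.01 in shERCC6L and 26.1 ± 0.67 in shNC (SD, n = 3 per group) and a change of -0.09 (95% confidence interval -0.21 to 0.03).

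Of the 7 secreted class 3 semaphorins, 1 was called higher and 1 lower. SEMA3C, a ligand of both neuropilins that shapes the outflow tract of the heart, read 1355, 1354 and 1583 in shERCC6L, against 1142, 1265 and 1280 in shNC. The groups did not overlap, but shERCC6L replicate 3 stood above the other two. The change was 0.21 ± 0.07 (SE). Of its 5 other probe sets 4 were called higher too, at 0.27 to 0.32, and the last read 1130, 1187 and 1552 in shERCC6L, against 1187, 1652 and 1218 in shNC, so that its groups overlapped at a change of -0.07. The call on the brightest probe set was lost without shERCC6L replicate 3, at 0.14, and without shNC replicate 1, 2 or 3, at 0.16, 0.24 and 0.24. It was also lost with a constant of 1 or 64 in place of 16, at 0.22 and 0.21. Averaged over all 6 probe sets the change was 0.22 and the call held.

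SEMA3B, a secreted semaphorin studied as a tumour suppressor in lung cancer, was the lower one. It read 45.3, 46.8 and 45.7 in shERCC6L, against 57.3, 50.8 and 56.4 in shNC. All shERCC6L arrays lay below all shNC arrays, with a change of -0.19 ± 0.04 (SE), and 2 of its 3 probe sets were called lower. SEMA3F, which acts through NRP2, was not called on its brightest probe set, where it read 104.7, 105.1 and 100.02 in shERCC6L, against 110.7, 101.1 and 111.2 in shNC. Its other 2 probe sets were called lower, at -0.13 and -0.34, and the averaged gene was called at -0.17. The choice of probe set therefore decides whether SEMA3F counts among the members that fell.

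The other 4 secreted ligands were not called on any probe set. SEMA3A, the best known repellent of growing axons, read 137.7, 155.8 and 164.4 in shERCC6L, against 158.3, 171.3 and 159.4 in shNC. The groups overlapped, and the interval of its change ran from -0.22 to 0.05 (95% confidence interval). SEMA3G, a ligand of NRP2, read 96.7, 87.1 and 92.5 in shERCC6L, against 93.7, 90.2 and 92.04 in shNC, a change of 0.00 (95% confidence interval -0.09 to 0.09). SEMA3D, known from vessel guidance in mouse, and SEMA3E, the ligand of PLXND1 that needs no neuropilin, had mean signals of 8.17 and 10.7 in shERCC6L and 9.86 and 11.8 in shNC, close to the lowest signals of the arrays. The groups did not overlap for SEMA3E, at -0.06, and overlapped for SEMA3D, at -0.10. Changes of genes at such signals are compressed by the constant of 16.

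**Figure D2:**
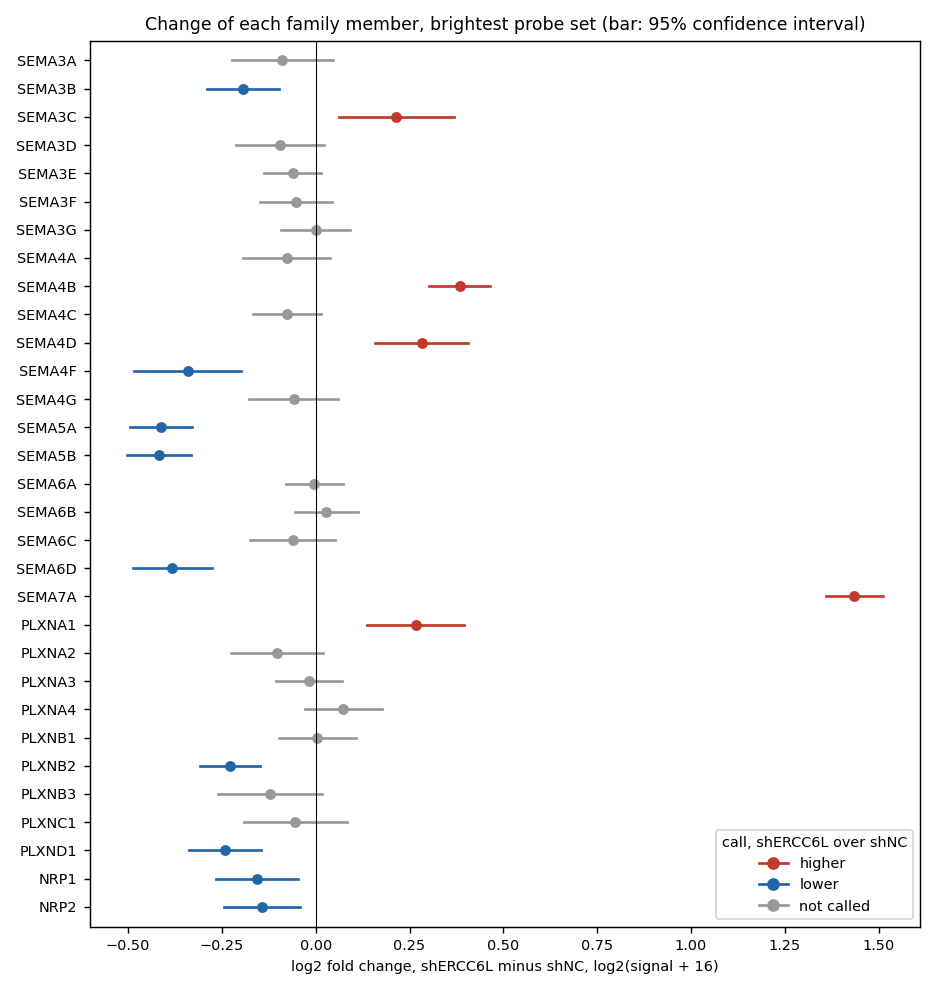
Change of each of the 31 members on its brightest probe set (x axis, shERCC6L minus shNC on the log2(signal + 16) scale), with its 95% confidence interval as a bar and its call as the colour. SEMA7A lies alone at 1.43, and the other members lie between -0.42 and 0.38.

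The 12 transmembrane semaphorins of classes 4 to 6 held 2 members that were called higher and 4 called lower. SEMA4B, a class 4 semaphorin, read 2460, 2394 and 2533 in shERCC6L, against 1910, 1848 and 1892 in shNC. The groups were well separated, and the change was 0.38 ± 0.04 (SE) on this probe set and 0.32 on the other, which was called higher too. SEMA4D, the PLXNB1 ligand also known as CD100 on lymphocytes, read 201.4, 208.2 and 177.9 in shERCC6L, against 162.9, 156.6 and 154.3 in shNC. Its change of 0.28 ± 0.05 (SE) stood on 1 of 5 probe sets, and the other 4, with changes of -0.13 to 0.04, were not called. The mean over all 5 changed by 0.03 and was not called.

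Both class 5 semaphorins, which carry thrombospondin-type repeats beside the semaphorin domain, were lower. SEMA5A, reported as a ligand of PLXNB3, read 673, 703.7 and 677.9 in shERCC6L, against 902.7, 905.4 and 941.7 in shNC. The change was -0.41 ± 0.04 (SE), and its 5 probe sets were all called lower, at -0.50 to -0.31. SEMA5B, its paralog, read 84.8, 86.2 and 88.4 in shERCC6L, against 121.4, 115.9 and 125.2 in shNC. The change was -0.42 ± 0.04 (SE) on the brightest of 5 probe sets and -0.64 to -0.43 on the other 4, all called lower. The signal left in shERCC6L was 74.7% of that in shNC for SEMA5A and 71.6% for SEMA5B.

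The other 2 that were lower were SEMA6D and SEMA4F. SEMA6D, a PLXNA1 ligand with a role in heart development in chick, read 69.5, 77.99 and 76.9 in shERCC6L, against 103.8, 97.6 and 105.5 in shNC. The groups were separated by a wide gap on that probe set, at -0.38 ± 0.05 (SE), and 2 of its 3 others, both dimmer, were called lower at -0.13 and -0.15. Averaged, SEMA6D changed by -0.17 and stayed called. SEMA4F, a class 4 semaphorin, read 154.3, 188.1 and 166 in shERCC6L, against 222.9, 208.8 and 223.5 in shNC. Its change of -0.34 ± 0.06 (SE) was seen on 1 of 4 probe sets, with -0.08 to 0.02 on the others, and the averaged change of -0.10 was not called.

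The remaining 6 transmembrane semaphorins were not called on their brightest probe sets. SEMA6A, a ligand of PLXNA2 and PLXNA4, read 365.7, 368.9 and 365.3 in shERCC6L, against 359.4, 366.7 and 377.1 in shNC. Its change was -0.00 (95% confidence interval -0.08 to 0.07), though 1 of its 4 probe sets was called higher, at 0.13. SEMA4C, a ligand of PLXNB2, read 192.7, 192.7 and 200.3 in shERCC6L, against 211.7, 196.6 and 212.04 in shNC, with an interval of -0.17 to 0.01 (95% confidence interval). SEMA6C averaged 200.6 ± 11.8 in shERCC6L and 209.96 ± 10.2 in shNC (SD, n = 3 per group). SEMA6B, a ligand of PLXNA4, averaged 66.1 ± 2.97 in shERCC6L and 64.5 ± 0.28 in shNC (SD, n = 3 per group). SEMA4A, a semaphorin of immune cells and the retina, averaged 53.3 ± 2.79 in shERCC6L and 57.2 ± 4.4 in shNC (SD, n = 3 per group), and was called lower at -0.08 only when its 2 probe sets were averaged. SEMA4G averaged 21.01 ± 2.34 in shERCC6L and 22.5 ± 1.64 in shNC (SD, n = 3 per group). The differences of SEMA6C, SEMA6B, SEMA4A and SEMA4G had 95% confidence intervals that included 0.

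Among the 9 plexins, 1 was higher and 2 were lower. PLXNA1, a receptor for class 3 semaphorins together with neuropilins and for SEMA6D, read 151.6, 169.5 and 171.8 in shERCC6L, against 137.1, 123.9 and 140.9 in shNC. The groups were apart, with a change of 0.27 ± 0.06 (SE), and the other probe set, at signals of 19.05 to 28.3, changed by 0.17 without being called. PLXNA1 and its ligand SEMA6D thus changed in opposite directions. PLXNB2, the receptor of SEMA4C, read 722.9, 694.7 and 732.8 in shERCC6L, against 845.8, 850.1 and 831.05 in shNC. Its change was -0.23 ± 0.03 (SE), and 3 of its 4 probe sets were called lower. PLXND1, the receptor of SEMA3E, read 68.4, 68.7 and 62.2 in shERCC6L, against 83.9, 78.8 and 81.3 in shNC, a change of -0.24 ± 0.04 (SE). Its second probe set changed by -0.19 and was not called.

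Of the plexins that were not called, PLXNA3 and PLXNB1 had signals almost equal between the groups. PLXNA3, a receptor of SEMA3F signals, read 304.8, 310.2 and 287.1 in shERCC6L, against 311.2, 302.5 and 299.9 in shNC. PLXNB1, the receptor of SEMA4D, read 95.4, 92.1 and 101.2 in shERCC6L, against 101.3, 91.6 and 94.7 in shNC. Their 95% confidence intervals were -0.11 to 0.07 and -0.10 to 0.11. PLXNB3, reported as a receptor of SEMA5A, read 114.6, 103.4 and 92.2 in shERCC6L, against 114.5, 114.4 and 112.1 in shNC, so that the shERCC6L arrays were spread more widely. At -0.12 ± 0.06 (SE) it had the largest change among the members that were not called. It was called lower, at -0.19, without shERCC6L replicate 1. PLXNA2, a receptor of SEMA6A, averaged 54.3 ± 4.94 in shERCC6L and 59.4 ± 2.8 in shNC (SD, n = 3 per group), and PLXNA4, which also binds SEMA6A, averaged 20.1 ± 1.32 in shERCC6L and 18.3 ± 1.62 in shNC (SD, n = 3 per group).

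Both neuropilins, co-receptors for class 3 semaphorins and for vascular endothelial growth factors, were called lower by a small margin. NRP1, which binds SEMA3A, read 355.2, 365.3 and 385.7 in shERCC6L, against 397.3, 439.5 and 402.01 in shNC. NRP2, which binds SEMA3F, read 404, 378.01 and 386.9 in shERCC6L, against 452.2, 409.9 and 433.5 in shNC. In both genes all shERCC6L arrays lay below all shNC arrays, though by little between the closest arrays. The changes were -0.16 ± 0.05 for NRP1 and -0.14 ± 0.04 for NRP2 (SE). Of 6 NRP1 probe sets 2 were called lower and 4 were not called, and of 9 NRP2 probe sets 2 were called lower and 7 were not. With probe sets averaged the changes were -0.02 and -0.07 and neither was called.

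Neither neuropilin call was firm when single arrays were left out. NRP1 was not called without shERCC6L replicate 1 or 2, at -0.13 and -0.15, or without shNC replicate 2 or 3, at -0.11 and -0.17, nor with median centring, at -0.15, or a constant of 1, at -0.16. NRP2 was not called without shERCC6L replicate 2 or 3, at -0.12 and -0.14, or without shNC replicate 1 or 3, at -0.11 and -0.14, nor with a constant of 1, at -0.15.

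**Figure D3:**
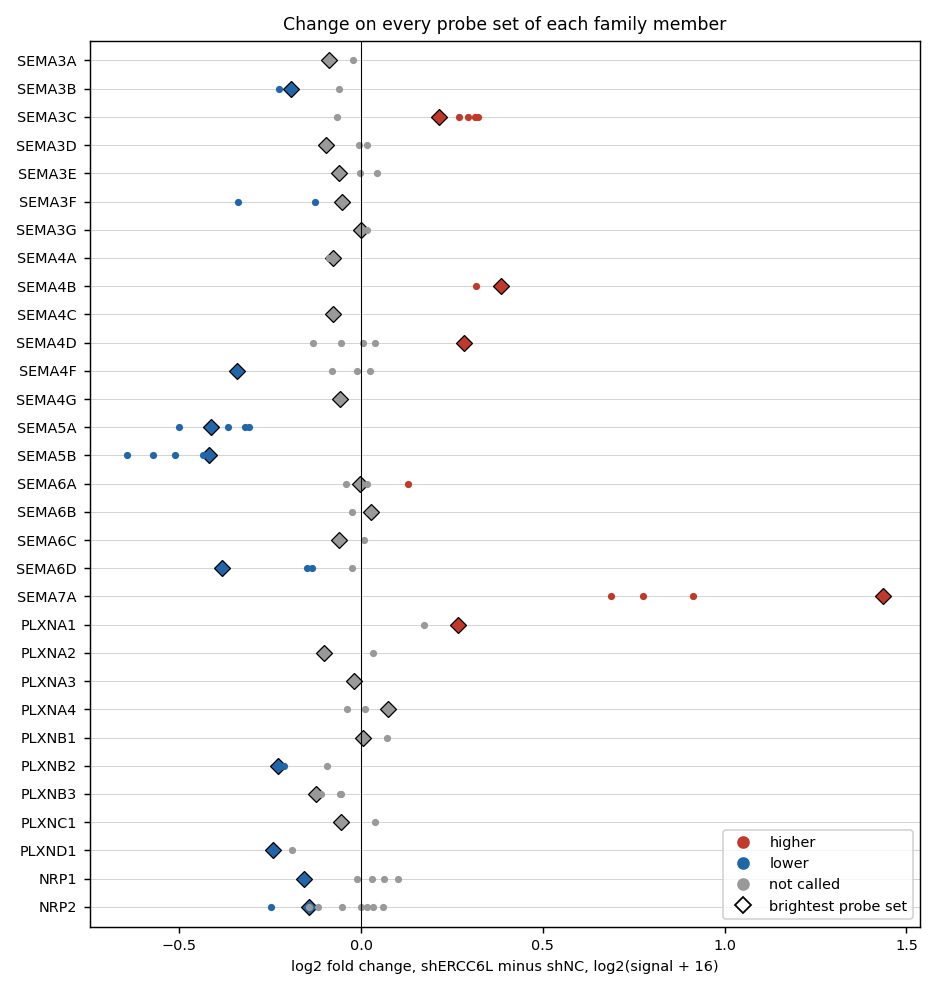
Change on each of the 101 probe sets of the 31 members (x axis, shERCC6L minus shNC on the log2(signal + 16) scale), coloured by call, with the brightest probe set of each gene as a diamond. Every probe set of SEMA5A, SEMA5B, SEMA4B and SEMA7A was called, in 1 direction per gene. The called diamonds of SEMA4D and SEMA4F stand apart from grey points near 0.

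Counted by probe set, 14 of the 101 were called higher and 26 lower, or 13.9% and 25.7%. Of all 44994 probe sets with 1 gene symbol, 17% were called higher, 12% lower and 29% in either direction. Probe sets of 1 gene share its transcripts and are not replicates, and the members differ in how many they have, from 1 to 9. In 0 members were probe sets called in both directions. Of the 28 members with 2 or more probe sets, 4 had all of them called in 1 direction, as did 13.5% of the 11735 such genes on the array.

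Other genes of the pathway were listed by role with earlier results of these data known: further receptors, vascular endothelial growth factors that bind neuropilins, cytoplasmic effectors of plexins, proteases that cut semaphorins or their receptors, and the guidance systems of slits, netrins and repulsive guidance molecules. Of 91 listed genes 86 were tested, and the other 5 were not analysed here. In all, 7 were called higher and 24 lower, or 8.14% and 27.9%, where 18.2% and 13.4% of all genes were. At or above the median level were 55 of the 86, with 7 called higher and 20 lower. Of all genes at that level, 32.8% were called higher and 19.6% lower. The same shares of all genes stand against the counts of each list below. The median change of the 86 genes was -0.062. The p-values below are from limma, adjusted over all 18132 genes.

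Of 39 plexin effectors tested, 3 were higher and 13 lower. RAC1, the small GTPase that plexins bind and that drives the leading edge, averaged 2021 ± 48 in shERCC6L and 3728 ± 23 in shNC (SD, n = 3 per group), a change of -0.88 (limma adjusted p = 3.37e-07). All 6 RAC1 probe sets were called lower, at -1.10 to -0.84. MRAS, a Ras-family GTPase acted on by plexins, changed by -0.49, and its 3 probe sets were all called lower. SSH1, a phosphatase that activates the actin-severing cofilin, changed by -0.61 and FARP1, an exchange factor linked to class A plexins, by -0.55, but 3 of 5 SSH1 probe sets were not called, and averaged over probe sets the changes were -0.19 and -0.29. Those higher were CDK5, a kinase that relays SEMA3A signals, at 0.27, its substrate DPYSL2, at 0.21, and the kinase gene ROCK1, at 0.13.

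Of the 11 small GTPases tested among these effectors, 3 were called lower, namely RAC1, MRAS and RND1, the last at -0.15. The other 8 (RHOA, CDC42, RND2, RND3, RRAS, RRAS2, RAP1A and RAP1B) were not called, at -0.03 to 0.10. Of the MICAL oxidase genes, MICAL3 was called lower at -0.15, and MICAL1 and MICAL2 were not called, at 0.05 and 0.01. CFL1, which encodes cofilin, was not called either, at -0.01.

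Among 16 further receptors 0 were higher and 2 lower. MET, the hepatocyte growth factor receptor that associates with PLXNB1, averaged 2167 ± 58 in shERCC6L and 2607 ± 103 in shNC (SD, n = 3 per group), a change of -0.26 (limma adjusted p = 0.000952), and its 6 probe sets were all called lower. PTK7, a pseudokinase related to the off-track co-receptor of fly plexins, changed by -0.24. ERBB2, another receptor kinase that associates with PLXNB1, was not called, at -0.07, on any of its 5 probe sets.

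Of the 4 neuropilin ligands tested 2 were higher and 1 lower. VEGFC, which binds NRP2, averaged 302.8 ± 13.5 in shERCC6L and 440.1 ± 8.85 in shNC (SD, n = 3 per group), a change of -0.52 (limma adjusted p = 1.91e-05). PGF changed by 0.17. VEGFA, the ligand of NRP1 that drives angiogenesis, averaged 3767 ± 104 in shERCC6L and 3482 ± 23.9 in shNC (SD, n = 3 per group), a change of 0.11. This call was lost with the replicate number as a block, with a constant of 1, and without any 1 of the 6 arrays, at 0.09 to 0.13. Of its 10 probe sets 6 were called higher and 4 were not called. Averaged over them the change was 0.11 and the call held.

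Of 6 protease genes 0 were higher and 4 lower. ADAM10, a sheddase of cell surface proteins, averaged 362 ± 20.8 in shERCC6L and 500.7 ± 15.4 in shNC (SD, n = 3 per group), a change of -0.45 (limma adjusted p = 9.36e-05) with all 4 probe sets called lower. MMP14, a membrane metalloproteinase that can release SEMA4D, changed by -0.19, again with all 4 probe sets called lower. ADAM17 changed by -0.23 on 1 of 4 probe sets and was not called when they were averaged, at -0.09. FURIN, which cleaves class 3 semaphorins, changed by -0.21, and was not called without shERCC6L replicate 3, at -0.15, or without shNC replicate 1 or 2, at -0.17 and -0.22.

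Of 21 slit, netrin and repulsive guidance genes 2 were higher and 4 lower. ROBO1, a slit receptor, averaged 276 ± 15 in shERCC6L and 444.2 ± 10.2 in shNC (SD, n = 3 per group), a change of -0.66 (limma adjusted p = 7.69e-06). NEO1, the receptor of netrins and repulsive guidance molecules, changed by -0.51, and the membrane-anchored netrin genes NTNG1 and NTNG2 by -0.49 and -0.39. Probe sets called lower were 2 of 3 for ROBO1, 1 of 3 for NEO1, 3 of 3 for NTNG1 and 1 of 2 for NTNG2. Averaged over probe sets the changes were -0.30 for ROBO1, -0.26 for NEO1, -0.80 for NTNG1 and -0.22 for NTNG2. RGMB and NTN4 were the 2 that were higher, at 0.23 and 0.19.

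**Figure D4:**
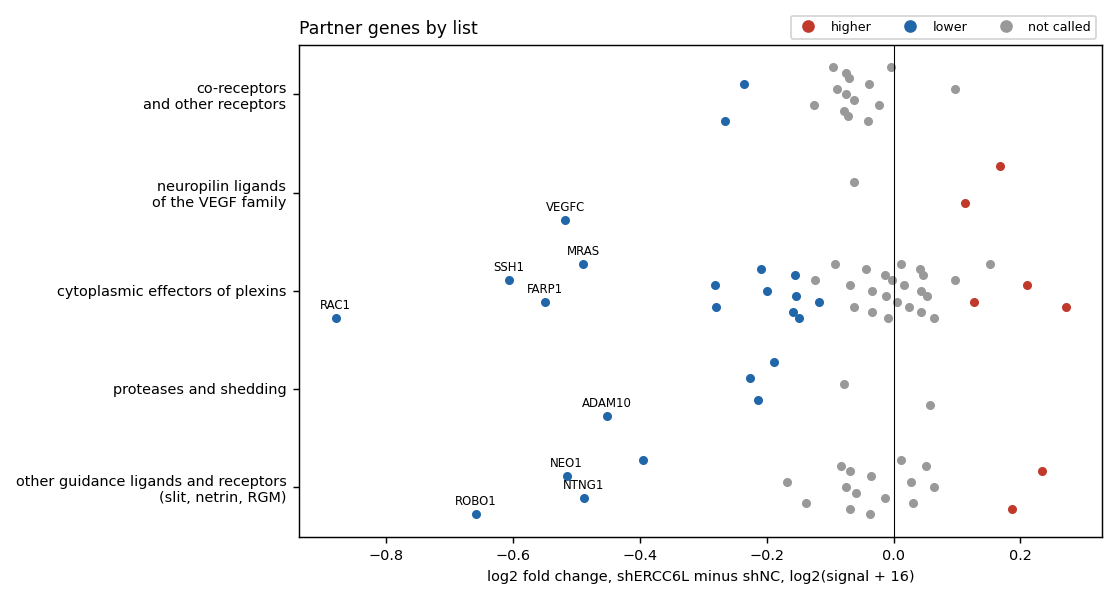
Change of the 86 other pathway genes tested (x axis, shERCC6L minus shNC on the log2(signal + 16) scale), in 1 band per list, with the height inside a band used only to separate points. Red points (higher, 7) reach 0.27 and blue points (lower, 24) reach -0.88, the value of RAC1.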

How the data were processed

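RNA of 6 samples was measured on Affymetrix arrays. The authors deposited linear intensities, 1 per probe set and array, made with Affymetrix Expression Console per the submitters' processing notes. For its version, background correction, normalization and detection calls the entry is "not given in the sources used here". Whether a dim signal exceeds background is thus unknown. Precision is limited by having 3 arrays per group.

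From these, log2(signal + 16) was computed. Of 49395 probe sets, 44994 had 1 gene symbol, 1832 several and 2473 none. Of the 102 control probe sets, some are among these counts and the rest are in none of them. A single PLXNB3 probe set shared with another gene was left out. Gene numbers of 44967 matched RefSeq. For each of 18132 genes the probe set with the highest mean was kept. A linear model without covariates was fitted by limma 3.58.1 (lmFit, then eBayes) under R 4.3.3, with two-sided p-values adjusted by Benjamini-Hochberg over all genes and a threshold of 0.05, and a second fit held every probe set. The linear model step, but not the choice of probe sets or the alternatives, was tested on simulated data. Alternatives were constants of 1 and 64, quantile normalization, median centring, filters on low levels, averaged or separate probe sets, array weights, a robust fit with an intensity trend, the replicate number as a block, and leaving out each array; for the other pathway genes they were added after the data had been seen.

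The members and lists were chosen with earlier results of these data known. Named were all members, ERCC6L, the receptors ITGA1, ITGB1, MET and ERBB2, and from each pathway list up to 4 called genes with the largest change, groups apart and a level at or above the median. Other pathway genes were named after their values were seen. Same-numbered arrays had correlations of 0.24, -0.14 and -0.0076 in their deviations from the group means and were not treated as pairs.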

Additional observations from a re-analysis of the deposited data

How the results depend on the processing

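Over the 17 alternatives, 4 to 5 members were called higher (5 as reported) and 7 to 9 lower (9 as reported), and the median change ran from -0.098 to -0.028. Over 15 alternatives, 12 to 15 of the 101 probe sets were called higher (14 as reported) and 19 to 28 lower (26 as reported). Of the other pathway genes, 5 to 8 were higher (7 as reported) and 20 to 26 lower (24 as reported). With 1 array left out, 4 to 5 members were higher and 7 to 9 lower. With the replicate number as a block, 5 members were called higher and 9 lower, and among the 31 members and the genes named by rule, VEGFA was the 1 whose call the block changed. The labels share numbers between groups, and deviations of same-numbered arrays from their group means had correlations of 0.24, -0.14 and -0.0076.

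Over the 31 members, 512 values were recomputed. In 488 the direction and the call held or a gene not called stayed so, in 21 a call was lost, in 3 one was gained, and 0 called members changed sign. Averaging a gene's probe sets ended the calls of SEMA4D, SEMA4F, NRP1 and NRP2 and added those of SEMA3F and SEMA4A. ERCC6L fell in all 17, by 0.95 to 1.34. SEMA7A rose in all 17, by 0.95 to 1.46, but these settings reuse the arrays whose SEMA7A rise chose the family. The causes were not tested. PLXNC1, PLXNA4, SEMA4G, SEMA3D and SEMA3E have signals near the low end of the arrays, where the constant of 16 compresses any change.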

Other observations

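The genes next to SEMA7A on chromosome 15 were looked up by position alone, after the data had been seen, counting only genes whose level reached the median. UBL7, the nearest on one side, was not called, with a mean signal of 319.8 in shERCC6L and 327.5 in shNC and a change of -0.03 ± 0.04 (SE, n = 3 per group). STRA6, a retinol transporter gene and the nearest on the other side, was not called either, at -0.17 ± 0.07 (SE). Beyond UBL7, ARID3B, which encodes a DNA-binding protein, was higher by 0.61 ± 0.04 (SE; limma adjusted p = 1.16e-05), and CLK3, a splicing kinase gene, was not called, at 0.06. Beyond STRA6, PML, the scaffold gene of nuclear bodies, was higher by 0.47 ± 0.05 (SE; limma adjusted p = 6.29e-05), and STOML1 was not called, at 0.09. Of these 6 neighbours 2 were called higher and 0 lower, where 32.8% and 19.6% of genes at that level were.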
